A study of Mus musculus with 4 samples.

Results

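The lung CD11b+Ly6g+ cells of mice treated with sFD17, the scrambled control peptide, were compared with those of untreated PMN (pre-metastatic niche) model mice across all expressed genes, grouped into functional classes. With 1 library on each side, 2 of the 4 libraries of the series were compared, and TP5 and FR17 served only as side values. Of the 54532 genes in the count table, 16369 had at least 10 counts in at least 1 of the 4 libraries and were described. All mice were C57BL/6, aged 6 to 8 week, and carried no gene modification named in the labels. Each received 300 μL of MCM, the culture medium of B16F10 mouse melanoma cells, into the peritoneum on 10 consecutive days, and B16F10 cells by tail vein on day 7. The control mice received no peptide that the labels name. The sFD17 mice received 40 μM/kg/day under the skin from day 3, as did the TP5 and FR17 mice with their peptides. TP5 is free thymopentin, FR17 is a lung-assembling peptide that carries it, and sFD17 assembles alike with the TP5 residues in scrambled order. Lungs were taken on day 10, and each library came from the sorted cells of a pool of 10 to 12 mice. The pool hides the spread between mice, and with 1 library per group no difference has a replicate check: each value compares libraries, not conditions.

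CD11b and Ly6G together mark neutrophils and the granulocytic cells called MDSCs in tumour-bearing mice. Neutrophils are short-lived cells that store antimicrobial proteins in granules, burn glucose for energy with few mitochondria, and answer microbial products and cytokines through NF-κB, a transcription factor held in check by its own inhibitors. In a lung prepared for metastasis they are known to suppress T cells, in part through nitric oxide, and to loosen the matrix with proteases.

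The libraries held 17132880 counts for control and 15543071 for sFD17. Values are CPM, counts relative to library size, after TMM scaling, a method that corrects for a few very abundant genes, and differences are log2 CPM with a prior count of 2, sFD17 minus control. A gene was called at a difference of at least 2-fold. By this rule 871 genes were higher in sFD17 (5.32% of those described) and 1059 lower (6.47%). Scaling by library size alone gave 580 higher and 1534 lower, and moved the median of all genes from −0.03 to −0.23, so each class is read beside the median of all genes, −0.03. The 95% interval of counting error excluded equality for 723 of the 871 higher genes and for 804 of the 1059 lower genes. Such intervals cover counting error only. In 372 genes (2.27%) sFD17 was at least 2-fold above each of the other libraries, and in 451 (2.76%) at least 2-fold below each. Of any size of difference, sFD17 was the highest of the 4 libraries in 31.4% of genes and the lowest in 36.9%. The TP5 and FR17 differences given beside those of sFD17 use the same control library.

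**Figure D1:**
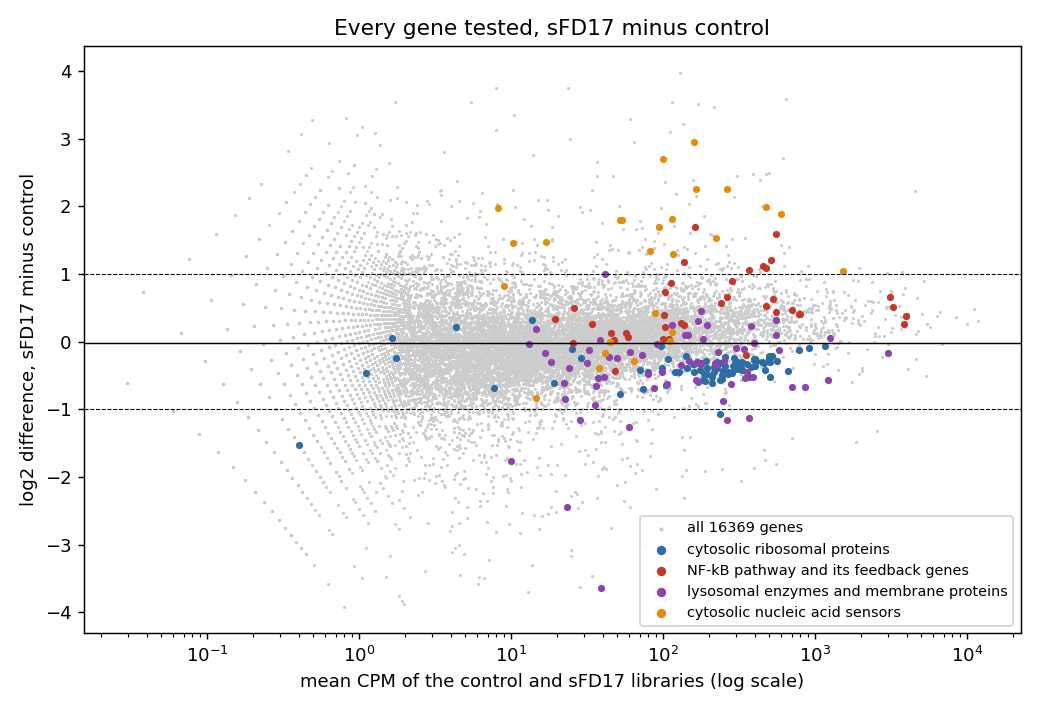
Every gene described, as the mean CPM of the control and sFD17 libraries (log scale) against the log2 difference, sFD17 minus control. Dashed lines mark 2-fold, the solid line is the median of all genes (−0.03); the cytosolic ribosomal genes form a narrow band below it and most NF-κB and nucleic acid sensor genes lie above it.

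The sorted cell type was checked first. Itgam, which encodes CD11b, stood at 433 CPM in sFD17 against 381 in control, with 370.4 in TP5 and 302 in FR17. Ly6g stood at 111 CPM in sFD17 against 73.1 in control, with 97.8 in TP5 and 90.7 in FR17. Both were present in every library, with differences of 0.18 and 0.61; the annotation places 68.7% of the exon bases of Itgam in Gm49368 too. Of the 18 neutrophil markers 17 lay above 0. Their differences ran from −0.01 to 0.72 with a median of 0.48, and 0 were called. Their sum was 56362 CPM in sFD17 against 42130.0 in control, with 44534 in TP5 and 35365 in FR17, highest in sFD17. Other cells were also read. The 18 alveolar macrophage markers summed to 1385 CPM in sFD17 against 4059 in control, with 3704 in TP5 and 5718 in FR17, and 12 were called lower, beside 6.47% of all genes. The 22 markers of resident interstitial or serosal macrophages summed to 3895 CPM in sFD17 against 8680.4 in control, with 5705 in TP5 and 9942 in FR17, and 16 were called lower. Both macrophage sums were lowest in sFD17 and highest in FR17, and 0 of their defining markers were at 0 in any library. In pooled bulk RNA fewer macrophages and less RNA per macrophage cannot be told apart. The 40 genes of these lists account for 28 of the 1059 genes called lower. Airway and alveolar epithelial markers summed to 1649 CPM in sFD17 against 886 in control, with 1286 in TP5 and 1030.0 in FR17, lowest in control, of which the club cell gene Scgb1a1 had 1222 CPM in sFD17 against 565 in control, with 875 in TP5 and 673 in FR17. Of the 20 markers of that list 14 lay above 0 and 6 below, with a median of 0.33. Of these 3 were called higher (beside 5.32% of all genes) and 0 lower. Among its defining genes Sftpb, a surfactant gene, had 322 counts in sFD17 against 205 in control and was called higher. Some defining genes went the other way. The surfactant gene Sftpc had 18.1 CPM in sFD17 (239 counts) against 28.8 in control (487 counts), with 17 in TP5 and 42.3 in FR17. Epcam, an epithelial adhesion gene, had 3.41 CPM in sFD17 (45 counts) against 6.04 in control (102 counts), with 7.81 in TP5 and 8.19 in FR17. The list of eosinophils, mast cells and basophils summed to 5788 CPM in sFD17 against 3730.3 in control, with 2809 in TP5 and 2067 in FR17, of which Hdc, the histidine decarboxylase that neutrophils also express, had 5702 CPM in sFD17 against 3641 in control, with 2725 in TP5 and 1941 in FR17; its defining markers had 2 to 62 counts in control and sFD17. Of the 16 markers of that list 5 were called higher (31.2%, beside 5.32% of all genes) and 1 lower (6.2%). The sums of the other lists are plotted by library. Of the melanoma markers Tyr and Tyrp1 were at 0 in all 4 libraries, Mlana at 0 in control and sFD17, while Pmel had 20 to 38 counts in each library. Only 4 of 13 melanoma markers passed the filter, Gpnmb, which macrophages also express, among them.

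**Figure D2:**
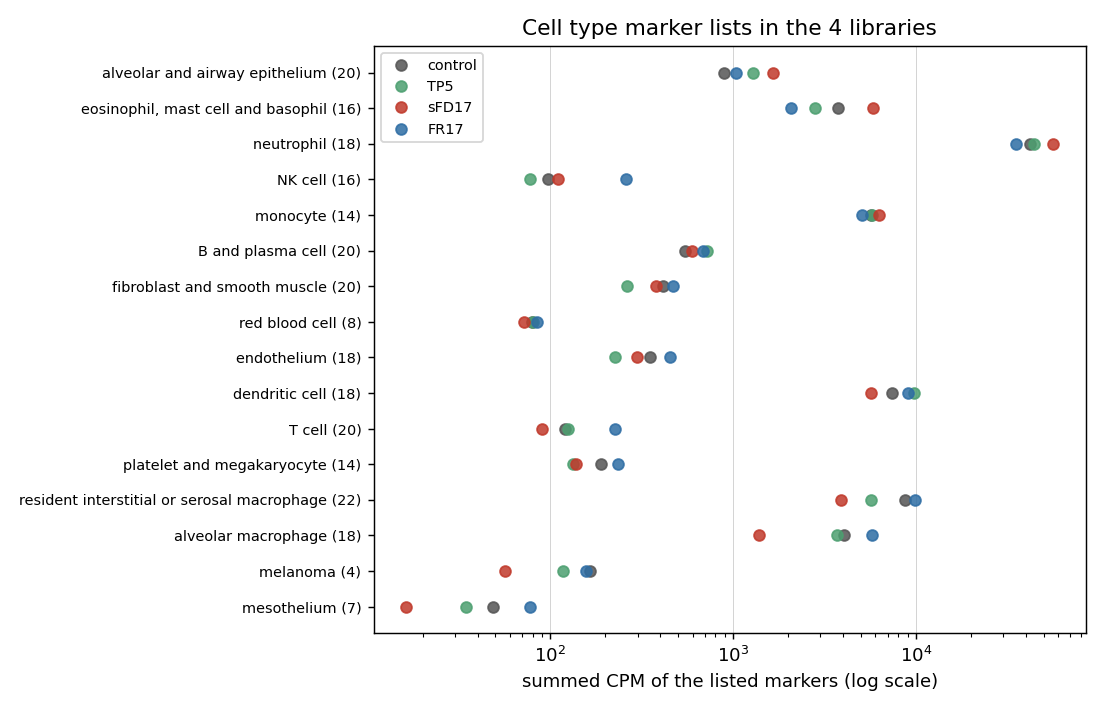
Summed CPM (log scale) of each cell type marker list in the 4 libraries, with the number of markers that passed the filter in brackets. The neutrophil sum is highest in sFD17 and the macrophage sums are lowest there.

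The largest rises outside the best-known interferon families included enzymes. Lipg, the endothelial lipase that cleaves lipoprotein phospholipids, stood at 44.3 CPM in sFD17 against 3.2 in control, with 2.22 in TP5 and 3.09 in FR17. The other libraries lay close together and sFD17 far above, a log2 difference of 3.75 (95% counting interval 3.39 to 4.22). Nos2 (ENSMUSG00000020826, chromosome 11 from 78920787 to 78960254, GRCm38), the inducible nitric oxide synthase, had 10.2 CPM in sFD17 (134 counts) against 0.77 in control (13 counts), with 0.57 in TP5 and 0.523 in FR17, a log2 difference of 3.54 (2.90 to 4.67). Upp1 (ENSMUSG00000020407, chromosome 11 from 9118103 to 9136170), the uridine phosphorylase that feeds the ribose of uridine into sugar metabolism, stood at 199.96 CPM in sFD17 against 23.3 in control, with 18.4 in TP5 and 17.8 in FR17, a difference of 3.09 (2.95 to 3.26). For all 3 genes only sFD17 was high. Rnf213, a giant ubiquitin ligase of the antimicrobial response, stood at 1066 CPM in sFD17 against 163 in control, with 186 in TP5 and 122 in FR17. Herc6, a ligase for the ubiquitin-like protein ISG15, stood at 114 CPM in sFD17 against 14.7 in control, with 12.5 in TP5 and 12.4 in FR17, a log2 difference of 2.95 (2.76 to 3.16). Olfr56, annotated as an odorant receptor, also stood among the 15 largest rises at 15 CPM in sFD17 (198 counts) against 1.01 in control (17 counts), with 1.37 in TP5 and 1.09 in FR17; it shares 111 exon bases on the same strand with Ifi47, an interferon-inducible GTPase that rose by 3.51.

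The largest falls were of genes with varied roles. Prg4 (ENSMUSG00000006014, chromosome 1 from 150449412 to 150466165, GRCm38), the lubricant proteoglycan lubricin, had 13.4 CPM in sFD17 (177 counts) against 191 in control (3226 counts), with 31.4 in TP5 and 120.4 in FR17, a log2 difference of −3.82 (95% counting interval −4.06 to −3.61). It was high in control and FR17, low in TP5 and lowest in sFD17. Fcna, a ficolin that starts the lectin pathway of complement, stood at 5.61 CPM in sFD17 against 62.8 in control, with 14.4 in TP5 and 61.9 in FR17. Mlxipl, the transcription factor ChREBP that senses carbohydrate, had 0.758 CPM in sFD17 (10 counts) against 7.4 in control (125 counts), with 2.28 in TP5 and 6.01 in FR17, a difference of −3.11 (−4.38 to −2.36). Acaa1b, a peroxisomal thiolase, had 0.909 CPM in sFD17 (12 counts) against 11.3 in control (191 counts), with 5.76 in TP5 and 17.4 in FR17. Flvcr2, a transporter of the major facilitator family, had 1.29 CPM in sFD17 (17 counts) against 13 in control (220 counts), with 7.87 in TP5 and 19.8 in FR17. Kcnn3, a calcium-activated potassium channel, had 2.42 CPM in sFD17 (32 counts) against 25 in control (423 counts), with 15.1 in TP5 and 33.9 in FR17. In the last 3 the order was sFD17, TP5, control and FR17 from low to high, the order of both macrophage sums, whose part in these falls was not tested. Srp54b, a gene for a subunit of the signal recognition particle, differed in kind. It had 0.909 CPM in sFD17 (12 counts) against 8.94 in control (151 counts), with 0.969 in TP5 and 0.871 in FR17, so that the control library alone was high; it has near-identical copies in the genome, and its count is uncertain for that reason.

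**Figure D3:**
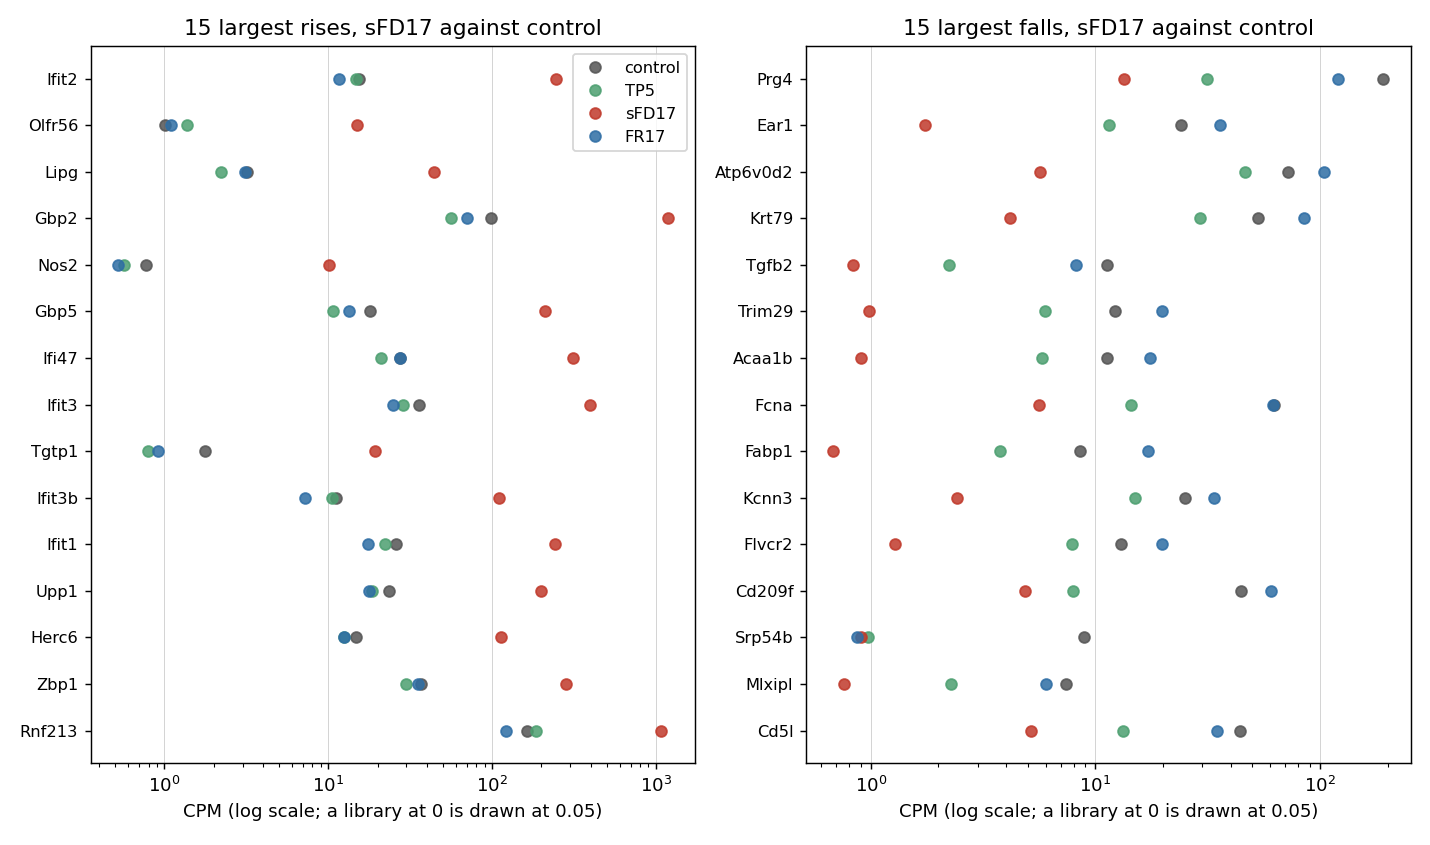
CPM (log scale) in each library of the 15 protein-coding genes with the largest rises (left) and falls (right) in sFD17 against control, among genes with at least 100 counts in one of them. On the left sFD17 stands alone above the others; on the right it is lowest in all but Srp54b, where FR17 and TP5 lie beside it.

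Functional classes were then set side by side, 70 in all. In 14 the median lay at least 0.3 from 0. Type I interferon-stimulated genes, nucleic acid sensors and interferon-inducible GTPases led the order, with medians of 1.83, 1.47 and 1.45. The lowest medians were those of complement (−0.48), lipid uptake and efflux (−0.47) and CC chemokines (−0.42). This order rested on marker genes: without them complement stood at −0.31, lipid uptake at −0.25 and CC chemokines at −0.42, and the mitochondrially encoded (−0.39), cytosolic ribosomal (−0.38) and mitochondrial ribosomal (−0.36) classes lay below the first 2 of these.

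**Figure D4:**
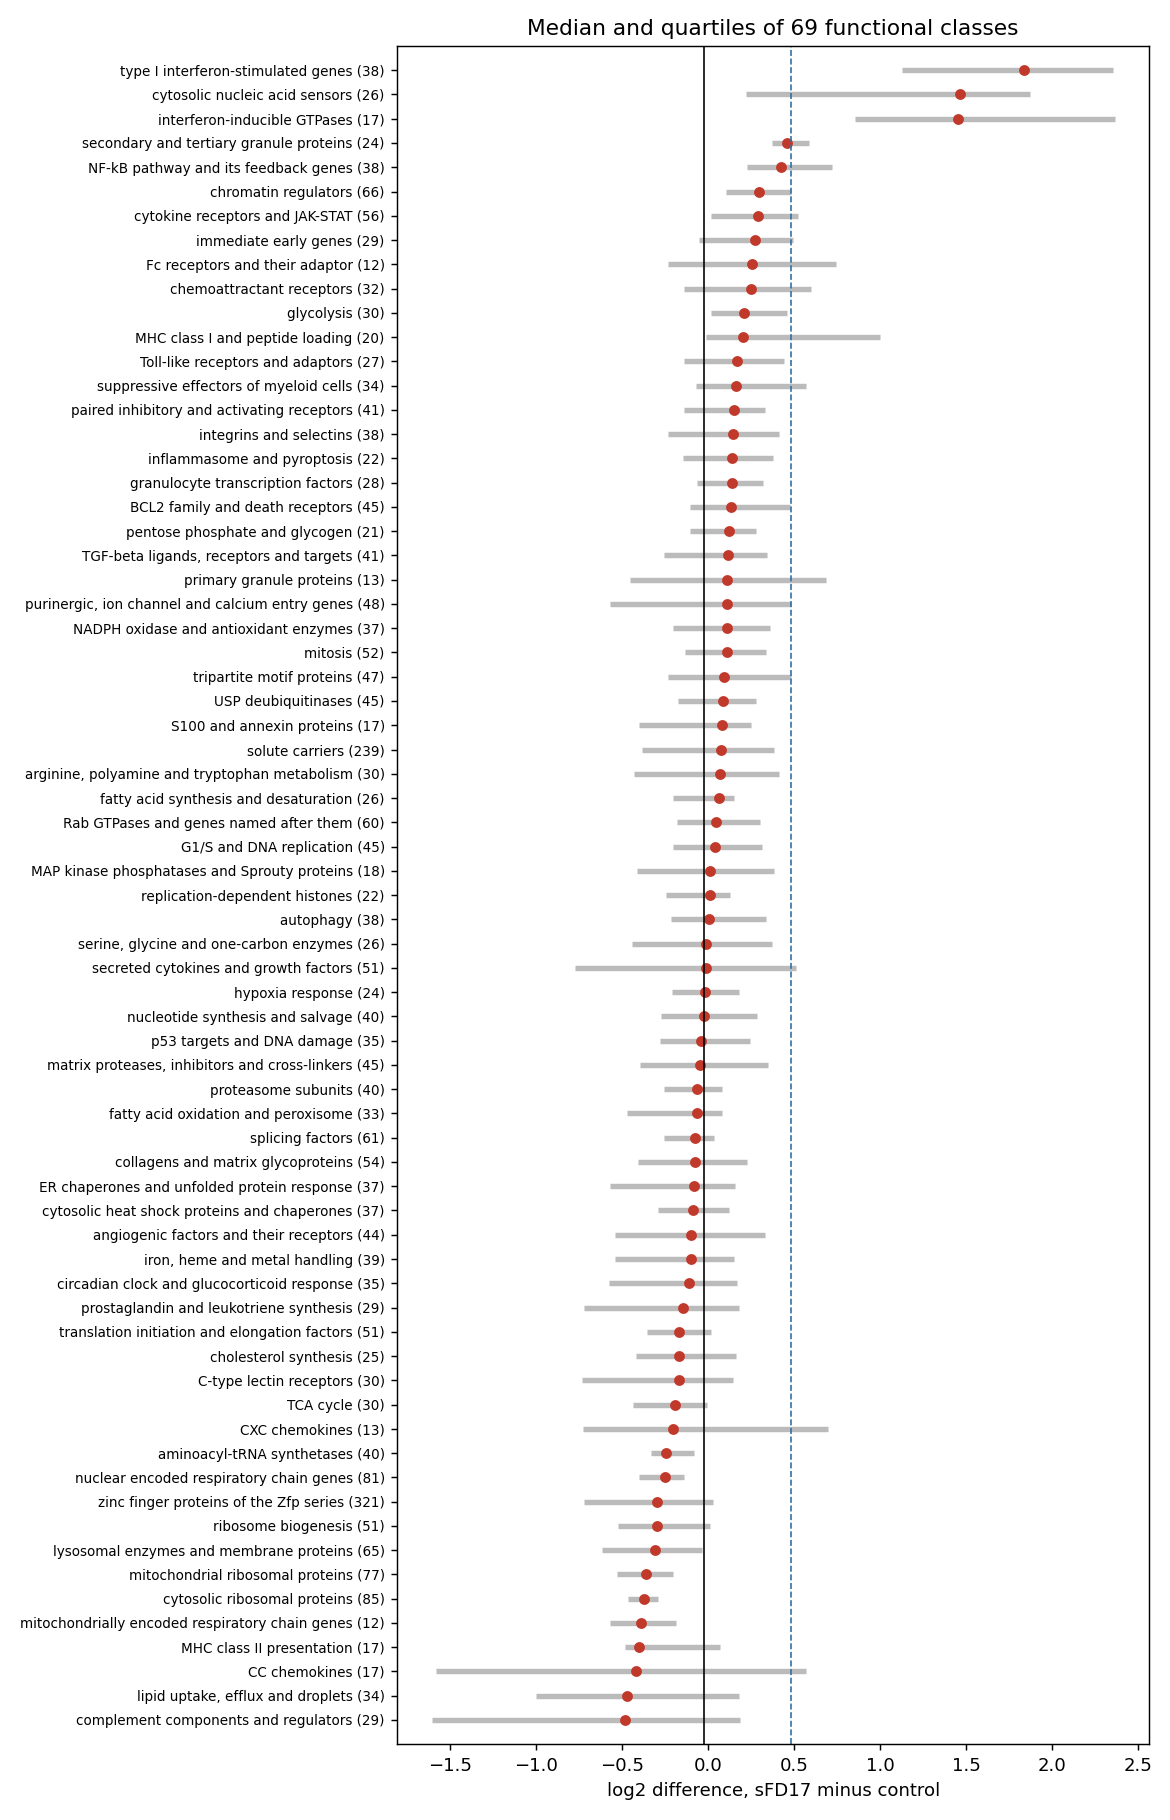
Median (red point) and interquartile range (grey bar) of the log2 difference, sFD17 minus control, in 69 of the 70 functional classes, with the number of genes described in brackets. The solid line is the median of all genes (−0.03) and the dashed line that of the 18 neutrophil markers (0.48); only the 3 classes at the top, of interferon-stimulated genes, nucleic acid sensors and interferon-inducible GTPases, pass the dashed line.

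The proteins of the ribosome were lower together, each by a little. Of 85 cytosolic ribosomal protein genes 82 lay below 0, with a median of −0.38 and 2 called, and sFD17 was the lowest of the 4 libraries in 80, beside 36.9% of all genes. Their sum was 19744 CPM in sFD17 against 25008 in control, with 28369 in TP5 and 30499 in FR17. The class median against control was 0.19 in TP5 and 0.31 in FR17, on the other side of 0. Rps27a, which is made as a fusion with ubiquitin, fell most among members with 50 counts, and stood at 152 CPM in sFD17 against 321 in control, with 176 in TP5 and 334 in FR17. The only other called member was Rpl39l, the ribosomal protein of the testis, which had 0.152 CPM in sFD17 (2 counts) against 0.651 in control (11 counts), with 0.285 in TP5 and 0.218 in FR17, a difference of −1.53 (−5.32 to 0.09). Rplp1, a protein of the stalk where translation factors bind, stood at 414 CPM in sFD17 against 597 in control, with 612 in TP5 and 771 in FR17, and sFD17 was lowest there too. Ribosomal protein genes have processed pseudogenes that can share their reads.

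Genes that build and feed the ribosome followed the same direction. The 51 ribosome biogenesis genes had a median of −0.30 and 38 lay below 0. Npm1, a nucleolar chaperone of ribosome assembly, stood at 77.3 CPM in sFD17 against 125 in control, with 154 in TP5 and 164 in FR17. Dkc1, the pseudouridine synthase of ribosomal RNA, stood at 5.76 CPM in sFD17 against 10.4 in control, with 11.7 in TP5 and 11.2 in FR17. Of 40 aminoacyl-tRNA synthetase genes 35 lay below 0 (median −0.24); the exception that stood out was Wars, the interferon-inducible tryptophanyl synthetase, at 43.1 CPM in sFD17 against 26 in control, with 29.2 in TP5 and 35.4 in FR17. The 51 translation factors had a median of −0.17. In these 3 classes 0 genes were called in either direction.

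Mitochondrial genes also lay below 0. All 12 respiratory chain genes encoded in mitochondrial DNA that passed the filter lay below 0, with a median of −0.39 against 0.58 in TP5 and 0.28 in FR17. mt-Nd4, a subunit of complex I, stood at 169 CPM in sFD17 against 265 in control, with 400.3 in TP5 and 326 in FR17, and sFD17 was the lowest library in all 12. Of the 81 respiratory chain genes in the nucleus 78 lay below 0 (median −0.25, 2 called), and sFD17 was lowest in 74. Uqcrb, a subunit of complex III, stood at 12.6 CPM in sFD17 against 20.6 in control, with 25.3 in TP5 and 32.8 in FR17. Cox6b2, a subunit of cytochrome oxidase known from testis, was called lower with 1.06 CPM in sFD17 (14 counts) against 3.2 in control (54 counts), with 5.07 in TP5 and 5.01 in FR17. The other called gene, Cox7a1, the oxidase subunit of muscle, had 0.379 CPM in sFD17 (5 counts) against 0.888 in control (15 counts), with 0.57 in TP5 and 0.828 in FR17. The 77 mitochondrial ribosomal proteins had a median of −0.36 with 0 called, and 69 lay below 0. The neutrophil marker sum was highest in sFD17 and the macrophage sums lowest, as given above; their part in the ribosomal and mitochondrial differences was not tested.

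**Figure D5:**
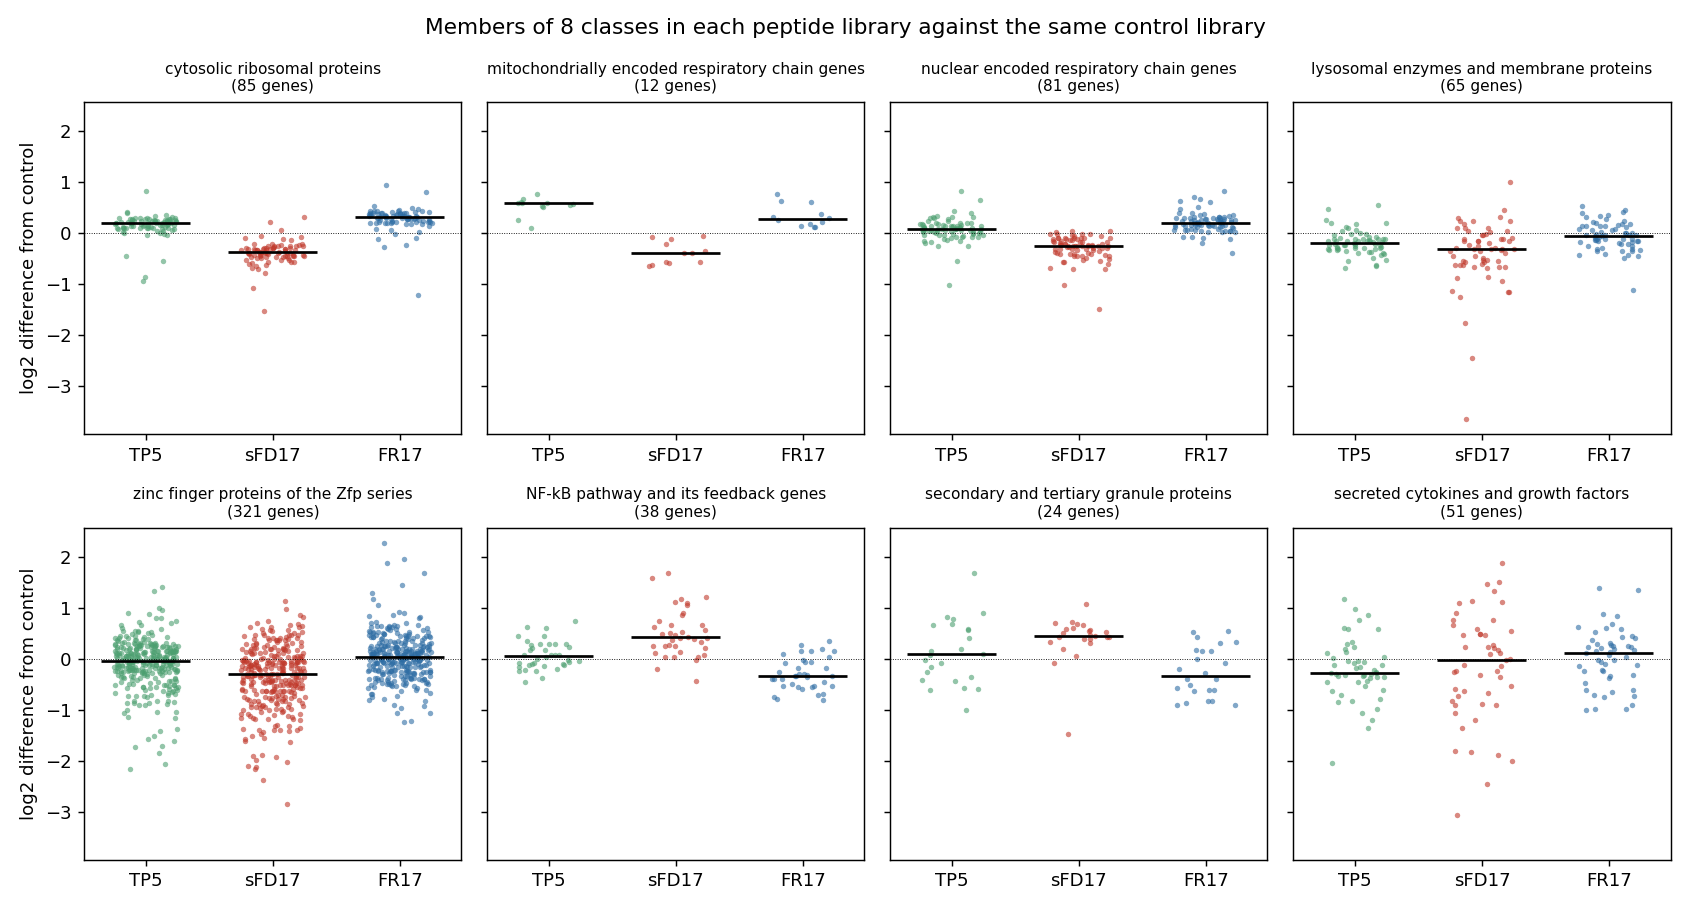
Log2 difference from the same control library of each member of 8 classes in the TP5, sFD17 and FR17 libraries; each point is 1 gene and each bar the median. The ribosomal and respiratory chain medians lie below 0 in sFD17 and above 0 in TP5 and FR17, and the NF-κB median is 0.42 in sFD17 and −0.33 in FR17.

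Glycolysis lay on the other side of the median of all genes. Of 30 glycolysis genes 24 lay above 0 (median 0.21, which passed below 0 when libraries were scaled by size alone), and 1 was called, Fbp1, the gluconeogenic bisphosphatase, which was lower with 0.455 CPM in sFD17 (6 counts) against 1.18 in control (20 counts), with 1.25 in TP5 and 1.35 in FR17. Hk1, a hexokinase, stood at 116 CPM in sFD17 against 63.6 in control, with 75.9 in TP5 and 58.9 in FR17. Slc2a1, the glucose transporter GLUT1, stood at 447 CPM in sFD17 against 326 in control, with 234 in TP5 and 178 in FR17. The lactate exporter Slc16a3 stood at 3858 CPM in sFD17 against 2465 in control, with 2303 in TP5 and 1633 in FR17. These were highest in sFD17 and under the 2-fold rule. The 30 genes of the tricarboxylic acid cycle had a median of −0.19. Of these 8 lay above 0, and the 1 called higher was Acod1 (ENSMUSG00000022126, chromosome 14 from 103046977 to 103056573), which makes itaconate from a cycle intermediate. It stood at 4992 CPM in sFD17 against 2442 in control, with 1524 in TP5 and 1090.5 in FR17, a log2 difference of 1.03 (1.01 to 1.05). Suclg2, a succinyl-CoA ligase subunit, was called lower with 4.7 CPM in sFD17 (62 counts) against 9.65 in control (163 counts), with 9.18 in TP5 and 8.76 in FR17.

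NF-κB genes lay above the median of all genes in sFD17, though as a class not above the neutrophil markers. Of 38 genes of the pathway and its feedback 35 lay above 0, 7 were called higher (background 5.32%) and 0 lower, with a median of 0.42; sFD17 was the highest library in 31, beside 31.4% of all genes. Traf1, an adaptor of TNF receptors, stood at 249 CPM in sFD17 against 77.1 in control, with 105 in TP5 and 74.2 in FR17, a log2 difference of 1.69 (1.60 to 1.78). Nfkbie, which encodes the inhibitor IκBε, stood at 717 CPM in sFD17 against 311 in control, with 283 in TP5 and 214 in FR17. Tnip1, a partner of the inhibitor A20, stood at 192 CPM in sFD17 against 84.6 in control, with 84 in TP5 and 74.6 in FR17. In all 3 sFD17 was highest. Nfkb2, the p100 precursor of the non-canonical arm, stood at 618 CPM in sFD17 against 284 in control, with 323 in TP5 and 203 in FR17. Tnf, the cytokine itself, stood at 648 CPM in sFD17 against 304 in control, with 358 in TP5 and 312 in FR17. Icam1, the ligand of the β2 integrins, and Cflar, the inhibitor of caspase-8, were the remaining called members, at 1.59 and 1.05. The most abundant member by length, Nfkbia, which encodes IκBα, was at 4439 CPM in sFD17 against 3420.2 in control, with 2995 in TP5 and 2336 in FR17. The median of the class lay under that of the neutrophil markers (0.48): centred on those markers, an alternative chosen after the values were seen, it was −0.06. The part of the neutrophil share in the class median was not tested.

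Promoters of the called members were then read, since 7 members were called higher. RefSeq promoters of 300 bases on GRCm38.p6, from 250 before the start of transcription, were at hand for 11190 of the genes described and for 30 of the 38 NF-κB genes. The NF-κB motif stood on either strand in 12 of the 30 (40.0%) and in 12.2% of all 11190. The class was listed as NF-κB pathway and feedback genes, so this share does not bear on sFD17. Members that were not called, such as Bcl3, Traf3 and Nfkbia, held the motif too. Of the 7 called genes, Nfkb2, Nfkbie and Tnip1 held the motif, and these are printed with it in capitals, 5′ to 3′ along the gene, where overlapping matches merge. A gene with several promoters was counted once if any of them matched. Nfkb2 has further promoters with a match, and only the first is printed. Stat2 and Cflar are shown for the interferon-stimulated response element, spelled GAAA, any 2 bases and GAAA, on either strand.
Nfkb2, chr19:46304487-46304786, plus strand: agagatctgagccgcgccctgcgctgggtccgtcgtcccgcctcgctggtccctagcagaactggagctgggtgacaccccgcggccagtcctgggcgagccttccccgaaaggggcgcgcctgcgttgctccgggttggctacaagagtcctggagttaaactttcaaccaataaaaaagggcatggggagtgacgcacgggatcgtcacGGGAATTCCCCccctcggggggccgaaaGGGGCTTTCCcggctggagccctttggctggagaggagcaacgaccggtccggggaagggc
Nfkbie, chr17:45555450-45555749, plus strand: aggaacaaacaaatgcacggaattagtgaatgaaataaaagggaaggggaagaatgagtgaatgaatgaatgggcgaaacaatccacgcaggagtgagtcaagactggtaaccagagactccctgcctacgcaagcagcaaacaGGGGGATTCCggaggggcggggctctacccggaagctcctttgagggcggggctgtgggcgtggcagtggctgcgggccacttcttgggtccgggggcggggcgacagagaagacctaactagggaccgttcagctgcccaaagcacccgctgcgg
Tnip1, chr11:54962891-54963190, minus strand: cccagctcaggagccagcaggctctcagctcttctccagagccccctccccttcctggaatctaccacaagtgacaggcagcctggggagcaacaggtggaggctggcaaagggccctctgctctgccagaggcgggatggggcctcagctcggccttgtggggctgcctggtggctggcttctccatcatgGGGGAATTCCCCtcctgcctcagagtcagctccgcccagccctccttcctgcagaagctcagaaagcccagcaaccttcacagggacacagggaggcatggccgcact
Stat2, chr10:128270248-128270547, plus strand: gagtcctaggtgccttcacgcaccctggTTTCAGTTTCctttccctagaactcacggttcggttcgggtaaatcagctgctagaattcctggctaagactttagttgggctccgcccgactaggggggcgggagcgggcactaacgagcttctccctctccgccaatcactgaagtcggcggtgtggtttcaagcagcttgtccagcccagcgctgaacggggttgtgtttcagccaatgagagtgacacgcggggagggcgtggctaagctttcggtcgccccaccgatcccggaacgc
Cflar, chr1:58711241-58711540, plus strand: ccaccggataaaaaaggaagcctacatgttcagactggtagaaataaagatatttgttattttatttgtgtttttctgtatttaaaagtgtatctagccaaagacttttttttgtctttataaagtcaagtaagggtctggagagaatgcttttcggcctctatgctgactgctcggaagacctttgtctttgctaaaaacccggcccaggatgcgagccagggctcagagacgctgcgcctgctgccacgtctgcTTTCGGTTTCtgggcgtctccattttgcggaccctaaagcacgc
A match is a description of letters and not a bound site.

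The response element was also counted over the called genes. It stood in 3.9% of all 11190 promoters, in 54 of 458 of the genes called higher (11.8%) and in 18 of 679 of those called lower (2.7%). Outside the interferon lists, and with at least 100 counts, 21 of 128 called higher held it (16.4%), against 4.4% of the 7238 genes with 100 counts. The 21 included further genes named for interferon (Ifi211, Ifi206, Ifi213), the helicase gene Ddx60, the kinase gene Eif2ak2, which shuts down translation on double-stranded RNA, and Stat2 itself. They also included Ogfr, a receptor for enkephalin, at 165 CPM in sFD17 against 79.6 in control, with 88.4 in TP5 and 78.7 in FR17. Homer1, a scaffold of glutamate receptors, stood at 328 CPM in sFD17 against 158 in control, with 199.6 in TP5 and 76.6 in FR17. The AP-1 motif, TGANTCA, stood in 11.4% of promoters of genes called higher, in 7.2% of those called lower and in 6.6% of all; the NF-κB motif stood in 12.9%, 12.7% and 12.2%. Among genes with at least 100 counts AP-1 stood in 16.8% of those called higher, in 12.8% of those called lower and in 6.8% of all. The palindromic CRE motif, TGACGTCA, stood in 1.1%, 2.8% and 3.4%. CRE was added after the values were seen.

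Of the cytokine receptor, nucleic acid sensor, inflammasome and Toll-like receptor classes, only the nucleic acid sensors had a share of called genes well above the background. Of 56 genes of cytokine receptors and the JAK-STAT pathway 43 lay above 0 (median 0.29), and 3 were called higher (5.4%, beside 5.32% of all genes). That median lay under that of the neutrophil markers. Stat2, a transcription factor of the type I interferon response, stood at 236 CPM in sFD17 against 57.8 in control, with 48.8 in TP5 and 44.9 in FR17, a log2 difference of 2.03 (1.92 to 2.13). Cish, a feedback inhibitor of cytokine signalling, stood at 58.3 CPM in sFD17 against 26.3 in control, with 35 in TP5 and 30.3 in FR17. Il2rg, the common γ chain, stood at 115 CPM in sFD17 against 51.6 in control, with 52.4 in TP5 and 52 in FR17; 30.5% of its exon bases lie in Gm20489 on the same strand, which had 0 counts in both libraries. Of 26 sensors of cytosolic nucleic acids 17 were called higher, and of the 18 that are on no interferon or marker list 9 were called, with a median of 0.93. Those lists are incomplete, since genes named for interferon such as Ifi211 and Ifi206 stand outside them. The 18 may therefore hold interferon-stimulated genes too. Ikbke, a kinase that activates IRF3, stood at 172 CPM in sFD17 against 26.4 in control, with 22.7 in TP5 and 23.1 in FR17, a difference of 2.70 (2.56 to 2.86). Zbp1, the sensor of Z-form nucleic acid, stood at 283 CPM in sFD17 against 36.6 in control, with 29.7 in TP5 and 35.1 in FR17. In the inflammasome class 1 of 22 was called higher (4.5%): Nlrp3, at 3958 CPM in sFD17 against 1969 in control, with 2082 in TP5 and 1041 in FR17. Toll-like receptor genes had 1 called member of 27, Tlr12, which was lower with 1.74 CPM in sFD17 (23 counts) against 5.62 in control (95 counts), with 1.94 in TP5 and 3.44 in FR17.

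Secreted cytokines split. Among 51 genes the calls were 7 higher (13.7%, beside 5.32% of all genes) and 9 lower (17.6%, beside 6.47%), with a median of −0.01. Csf3, the granulocyte colony-stimulating factor G-CSF, stood at 53.5 CPM in sFD17 against 19.3 in control, with 23.5 in TP5 and 9.63 in FR17. Il23a, the p19 chain of IL-23, stood at 109.9 CPM in sFD17 against 50.4 in control, with 41.6 in TP5 and 33 in FR17. Il27, a chain of IL-27, stood at 11.3 CPM in sFD17 against 4.44 in control, with 3.42 in TP5 and 5.45 in FR17. In these sFD17 was highest. The other higher genes were Tnf, Tnfsf10, which encodes TRAIL, and, with few counts, Il12a and Lta. On the lower side Il6 stood at 38.6 CPM in sFD17 against 88.9 in control, with 78.6 in TP5 and 70.7 in FR17, a log2 difference of −1.20 (−1.35 to −1.06), with control, TP5 and FR17 above sFD17. Igf1, the insulin-like growth factor, stood at 18 CPM in sFD17 against 66.6 in control, with 54.3 in TP5 and 76.8 in FR17. Ereg, the EGF receptor ligand epiregulin, had 0.833 CPM in sFD17 (11 counts) against 7.76 in control (131 counts), with 6.27 in TP5 and 11.8 in FR17. Gdf15, a stress-induced cytokine, stood at 29.9 CPM in sFD17 against 105 in control, with 63.9 in TP5 and 126 in FR17. Pdgfc, a platelet-derived growth factor, had 1.52 CPM in sFD17 (20 counts) against 8.76 in control (148 counts), with 4.85 in TP5 and 9.67 in FR17. Igf1, Ereg, Gdf15 and Pdgfc ran from low to high as sFD17, TP5, control and FR17, as both macrophage sums did, whose part was not tested. Il10, Tnfsf13, Tgfa and Tslp were the other lower members. Il1b, the abundant product of activated neutrophils, stood at 12994 CPM in sFD17 against 9265 in control, with 7630.1 in TP5 and 5630.0 in FR17, under the 2-fold rule.

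Chemokines of the CC family fell in part. Of 17 genes 5 were called lower (29.4%, beside 6.47% of all genes) and 0 higher. The monocyte attractants Ccl2, Ccl7 and Ccl12 moved together. Ccl2 stood at 18 CPM in sFD17 against 54.2 in control, with 34.3 in TP5 and 70.6 in FR17. Ccl7 stood at 9.24 CPM in sFD17 against 43.7 in control, with 22.8 in TP5 and 70.7 in FR17. Ccl12 stood at 7.43 CPM in sFD17 against 29.2 in control, with 17.3 in TP5 and 41.7 in FR17. For each, sFD17 was lowest and FR17 highest, as for both macrophage sums given above, whose part in these values was not tested. Ccl24, the eotaxin made by tissue macrophages, had 5.53 CPM in sFD17 (73 counts) against 18.9 in control (320 counts), with 11.5 in TP5 and 18.8 in FR17, and Ccl8 was the fifth. Of the 13 that are on no marker list 4 were called, with a median of −0.42. The 13 CXC chemokines had a median of −0.20, with 7 below 0, and 2 were called higher, Cxcl10 and Cxcl11, and 2 lower, Cxcl13 and Pf4 (15.4% each). The neutrophil-attracting Cxcl2 stood at 10829 CPM in sFD17 against 9017 in control, with 6897 in TP5 and 4409.5 in FR17, a log2 difference of 0.26. Cxcl11, a CXCR3 ligand, had 3.26 CPM in sFD17 (43 counts) against 0.178 in control (3 counts), with 0.057 in TP5 and 0.348 in FR17, a difference of 3.53 (2.55 to 6.53). Receptors for attractants had a median of 0.25, under that of the neutrophil markers (0.48). Of 32 receptors 0 were called higher and 2 lower (6.2%, beside 6.47% of all genes). Fpr2, a formyl peptide receptor, stood at 432 CPM in sFD17 against 233 in control, with 232 in TP5 and 190.5 in FR17. Ackr3, a scavenging receptor of CXCL12, had 3.33 CPM in sFD17 (44 counts) against 9.06 in control (153 counts), with 2.68 in TP5 and 10.8 in FR17.

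Granule genes of neutrophils were read by stage. Primary granules are filled in the earliest precursors, and secondary and tertiary granules later. Of 24 genes of the later granules 22 lay above 0, with a median of 0.46, close to that of the neutrophil markers, and sFD17 was highest in 16. The neutrophil marker list also holds later granule genes, Lcn2 and Ngp among them, so these medians are not separate readings. Lcn2, the iron-trapping lipocalin, stood at 2035 CPM in sFD17 against 1264 in control, with 1674 in TP5 and 1408 in FR17. Ngp, a late granule protein, stood at 4202 CPM in sFD17 against 2924 in control, with 5016 in TP5 and 3633 in FR17. Ngp was highest in TP5 and Lcn2 in sFD17. Mmp25, a membrane-bound protease of these granules, stood at 234 CPM in sFD17 against 121 in control, with 142 in TP5 and 100.3 in FR17. The called exceptions were Chil3 and BC100530. Chil3, a chitinase-like protein of macrophages and neutrophils, was lower at 974 CPM in sFD17 against 2718 in control, with 2694 in TP5 and 3952 in FR17. BC100530, a cystatin A-like protease inhibitor, was higher with 5.38 CPM in sFD17 (71 counts) against 2.49 in control (42 counts), with 1.6 in TP5 and 1.7 in FR17; 18.4% of its exon bases lie in Gm15845 on the other strand. The 13 primary granule genes had a median of 0.11, with 2 called higher (15.4%, beside 5.32% of all genes) and 1 lower (7.7%, beside 6.47%); the difference between the stages was not tested. Mpo, myeloperoxidase, had 5.68 CPM in sFD17 (75 counts) against 2.25 in control (38 counts), with 8.44 in TP5 and 6.14 in FR17. Elane, neutrophil elastase, had 4.47 CPM in sFD17 (59 counts) against 2.07 in control (35 counts), with 5.19 in TP5 and 3.96 in FR17. Both enzymes were lowest in control, highest in TP5 and called higher in sFD17. Ctsc, the protease that activates the granule serine proteases and which macrophages also make, was lower at 228 CPM in sFD17 against 500.4 in control, with 377 in TP5 and 583 in FR17.

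Genes of T cell suppression and of arginine use held called members in both directions. Of 34 suppressive effectors 2 were called higher (5.9%) and 3 lower (8.8%), close to the 5.32% and 6.47% of all genes. Nos2 is given above. Cd274, which encodes PD-L1, stood at 864 CPM in sFD17 against 319.6 in control, with 242 in TP5 and 181 in FR17, a log2 difference of 1.43 (1.39 to 1.48), highest in sFD17. Slc7a2, the arginine transporter CAT2, stood at 12.2 CPM in sFD17 against 61.2 in control, with 41.6 in TP5 and 71.5 in FR17, lowest in sFD17. Of the 30 genes of arginine, polyamine and tryptophan metabolism 4 were called higher (13.3%) and 3 lower (10.0%). Smox, the spermine oxidase, stood at 1093 CPM in sFD17 against 529.6 in control, with 348 in TP5 and 260.2 in FR17. Ass1, which rebuilds arginine from citrulline, had 24.2 CPM in sFD17 (320 counts) against 11.8 in control (200 counts), with 16.2 in TP5 and 14.5 in FR17. Nampt, the rate-limiting enzyme of NAD salvage, stood at 408 CPM in sFD17 against 181 in control, with 166 in TP5 and 137 in FR17. Kynu, kynureninase, had 5.08 CPM in sFD17 (67 counts) against 12.2 in control (206 counts), with 13.6 in TP5 and 15 in FR17, and was called lower. Nucleotide genes had 3 called of 40, all higher (7.5%). Upp1 is given above. Cmpk2, the mitochondrial UMP/CMP kinase, stood at 198 CPM in sFD17 against 43.5 in control, with 47.3 in TP5 and 31.4 in FR17. Samhd1, which destroys dNTPs, stood at 2056 CPM in sFD17 against 1002 in control, with 902 in TP5 and 741 in FR17. Sod2, the mitochondrial superoxide dismutase, was the 1 called gene among 37 of the NADPH oxidase and antioxidant class, at 339 CPM in sFD17 against 159 in control, with 156 in TP5 and 125 in FR17.

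Lipid, lysosome and eicosanoid classes fell through part of their members. In lipid uptake, efflux and droplets 9 of 34 were called lower (26.5%, beside 6.47% of all genes) and 0 higher. Lpl, lipoprotein lipase, stood at 59.8 CPM in sFD17 against 223 in control, with 160.2 in TP5 and 264 in FR17. Msr1, a scavenger receptor, stood at 13.8 CPM in sFD17 against 42.4 in control, with 25.9 in TP5 and 43.5 in FR17. Abca1, the cholesterol exporter, stood at 55.5 CPM in sFD17 against 113 in control, with 78.1 in TP5 and 105 in FR17. Each was lowest in sFD17. Leaving out the marker genes, the median went from −0.47 to −0.25, with 6 of 29 lower. Of 65 lysosomal genes 51 lay below 0, 7 were called lower (10.8%) and 0 higher. Atp6v0d2, a subunit of the proton pump known from macrophages and osteoclasts, stood at 5.68 CPM in sFD17 against 72 in control, with 46.5 in TP5 and 104 in FR17, a difference of −3.64 (−4.02 to −3.33). Lgmn, the protease legumain, stood at 164 CPM in sFD17 against 364 in control, with 261 in TP5 and 383 in FR17. Hexa, a hexosaminidase, stood at 173 CPM in sFD17 against 318 in control, with 273 in TP5 and 376 in FR17. Without marker genes 5 of 62 lysosomal genes were called lower (beside 6.47% of all genes), with a median of −0.31. Psap, the most abundant member by length, had a difference of −0.16.

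Of 29 genes of prostaglandin and leukotriene synthesis 7 were called lower (24.1%, beside 6.47% of all genes) and 1 higher. Alox15, the 12/15-lipoxygenase of macrophages and eosinophils, stood at 16.5 CPM in sFD17 against 134 in control, with 47.7 in TP5 and 101 in FR17, a difference of −3.01 (−3.23 to −2.82). Ltc4s, leukotriene C4 synthase, had 3.79 CPM in sFD17 (50 counts) against 16.2 in control (273 counts), with 6.61 in TP5 and 19 in FR17. Hpgds, the prostaglandin D synthase of haematopoietic cells, had 6.21 CPM in sFD17 (82 counts) against 24.7 in control (417 counts), with 13.3 in TP5 and 26.8 in FR17; 26.4% of the exon bases of Ltc4s also lie in Gm26542 on the other strand. Ptgis, prostacyclin synthase, had 4.7 CPM in sFD17 (62 counts) against 18.6 in control (315 counts), with 4.79 in TP5 and 17 in FR17. In these sFD17 was lowest. Ptgir, the prostacyclin receptor, was the 1 higher gene, with 49.6 CPM in sFD17 (655 counts) against 22.8 in control (385 counts), with 39.3 in TP5 and 25.2 in FR17. Ptgs2, the inducible cyclooxygenase, was abundant and at 0.40. The macrophage sums given above fell with these 3 classes, and their part in them was not tested.

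Antigen presentation was read by class. Of 20 genes of MHC class I and peptide loading 5 were called higher (beside 5.32% of all genes) and 0 lower, with a median that passed below 0 when libraries were scaled by size alone. Nlrc5, the transactivator of class I genes, stood at 267 CPM in sFD17 against 60.2 in control, with 49.1 in TP5 and 53.5 in FR17. Tap1, the peptide transporter, stood at 377 CPM in sFD17 against 167 in control, with 136 in TP5 and 144 in FR17. Tapbp, tapasin, stood at 584 CPM in sFD17 against 285 in control, with 262 in TP5 and 253 in FR17. Tapbpl, a tapasin relative, stood at 65.2 CPM in sFD17 against 24.3 in control, with 23.3 in TP5 and 28.4 in FR17, and H2-T24, a class Ib gene with close relatives in the genome, was the fifth at 1.31. Psme2, an activator of the proteasome induced by interferon-γ, was the 1 called of 40 proteasome genes, at 119 CPM in sFD17 against 56.5 in control, with 62 in TP5 and 44.7 in FR17. The invariant B2m was at 0.13. Of 17 genes of MHC class II presentation 12 lay below 0 and 0 were called, with a median of −0.41 against 0.30 in TP5 and 0.21 in FR17. Cd74, the invariant chain, stood at 3520.3 CPM in sFD17 against 4664 in control, with 6026 in TP5 and 5728 in FR17. H2-Aa, a class II α chain, stood at 1395 CPM in sFD17 against 2121 in control, with 2582 in TP5 and 2432 in FR17. Without the genes on marker lists the class II median was −0.17 over 15 genes. The dendritic cell markers summed to 5668 CPM in sFD17 against 7389.5 in control, with 9739 in TP5 and 9042 in FR17, but Cd74 is on that list and made up most of its sum. Of its 18 markers 11 lay above 0, with a median of 0.13 and 1 called lower. Their part was not tested.

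Complement genes were lower in sFD17 in part. Of 29 complement genes 9 were called lower (31.0%, beside 6.47% of all genes) and 2 higher (6.9%), and without marker genes 5 and 2 of 24. C6, a part of the membrane attack complex, had 1.74 CPM in sFD17 (23 counts) against 7.04 in control (119 counts), with 0.912 in TP5 and 7.58 in FR17. Fcnb, the ficolin of neutrophil granules, was higher with 22.4 CPM in sFD17 (296 counts) against 9.24 in control (156 counts), with 29.1 in TP5 and 16.9 in FR17, so that TP5 was highest. Of 30 C-type lectin receptors 4 were called lower (13.3%) and 0 higher. Cd209f, a relative of DC-SIGN, had 4.85 CPM in sFD17 (64 counts) against 44.3 in control (749 counts), with 7.92 in TP5 and 60.5 in FR17. Clec10a, a galactose receptor of macrophages and dendritic cells, stood at 26.7 CPM in sFD17 against 88.2 in control, with 51.4 in TP5 and 114 in FR17. Both ran from low to high as sFD17, TP5, control and FR17, the order of both macrophage sums, whose part was not tested. Cd209f and Cd209g belong to a family of similar genes between which reads can be split. Clec4d, the most abundant lectin by length and a neutrophil gene, was at 0.37.

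For adhesion, matrix and vessels the study's questions concern how the lung is made ready for tumour cells. The study read these products mainly as protein in lung tissue and in fibroblast cultures. The values here are RNA of sorted CD11b+Ly6g+ cells, which is another measure in other material. Fn1 is on the monocyte marker list and Postn on the fibroblast list, and the part of other cells in these values was not tested. Fn1, fibronectin, stood at 379.9 CPM in sFD17 against 1019.7 in control, with 688 in TP5 and 731 in FR17, a log2 difference of −1.42 (−1.47 to −1.38). Lox, which cross-links collagen, had 1.97 CPM in sFD17 (26 counts) against 3.49 in control (59 counts), with 2.39 in TP5 and 3.62 in FR17. Postn, periostin, had 4.39 CPM in sFD17 (58 counts) against 5.27 in control (89 counts), with 3.93 in TP5 and 7.1 in FR17; the interval of Postn ran from −0.76 to 0.23. Mmp9, the gelatinase of neutrophil granules, stood at 2741 CPM in sFD17 against 1984 in control, with 2097 in TP5 and 1519 in FR17. Mmp2 had 11.7 CPM in sFD17 (154 counts) against 13.3 in control (224 counts), with 7.53 in TP5 and 10.2 in FR17, with a difference of −0.18 (−0.49 to 0.12). Vegfa stood at 249.5 CPM in sFD17 against 222 in control, with 199 in TP5 and 118 in FR17. Angpt2 had 3.26 CPM in sFD17 (43 counts) against 2.31 in control (39 counts), with 1.37 in TP5 and 1.96 in FR17. Vcan, the proteoglycan versican, was called higher with 8.03 CPM in sFD17 (106 counts) against 2.19 in control (37 counts), with 5.47 in TP5 and 3.92 in FR17, a difference of 1.82 (1.32 to 2.46). For Vcan the control library was below all 3 peptide libraries. Of 54 collagen and matrix glycoprotein genes 7 were called lower (beside 6.47% of all genes) and Vcan alone higher. Without the genes on marker lists 4 of 45 were lower. Thbs1, thrombospondin 1, the most abundant of them, stood at 6712 CPM in sFD17 against 3605 in control, with 4531 in TP5 and 2304 in FR17.

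Of 44 angiogenic factors and receptors 6 were called lower (13.6%, beside 6.47% of all genes) and 2 higher (4.5%, beside 5.32%). Prok2, the prokineticin Bv8 made by neutrophils, had 17 CPM in sFD17 (224 counts) against 3.49 in control (59 counts), with 4.1 in TP5 and 1.92 in FR17, a difference of 2.24 (1.86 to 2.72), highest in sFD17. Angptl4, an inhibitor of lipoprotein lipase that also acts on vessels, stood at 5.61 CPM in sFD17 against 31 in control, with 17.4 in TP5 and 42.6 in FR17. Ang, angiogenin, had 2.73 CPM in sFD17 (36 counts) against 12.4 in control (210 counts), with 7.75 in TP5 and 17.1 in FR17; 18.2% of its exon bases lie in Rnase4 on the same strand, which itself had 1599 counts in control and 347 in sFD17. In the TGF-β class 5 of 41 were called lower (12.2%) and 1 higher (2.4%). The latter was Inhbb, an activin chain, with 0.909 CPM in sFD17 (12 counts) against 0.178 in control (3 counts), with 0.513 in TP5 and 0.348 in FR17, a difference of 1.81 (0.47 to 4.82). Ltbp1, which anchors latent TGF-β in the matrix, had 4.47 CPM in sFD17 (59 counts) against 27.3 in control (461 counts), with 6.73 in TP5 and 21.5 in FR17. Bmp2, a bone morphogenetic protein, had 2.58 CPM in sFD17 (34 counts) against 12.6 in control (212 counts), with 5.07 in TP5 and 14.2 in FR17. Tgfb1, the abundant ligand, was at 326 CPM in sFD17 against 268 in control, with 331 in TP5 and 259 in FR17, a difference of 0.28 (0.22 to 0.34). Of 38 integrin and selectin genes 5 were called lower (13.2%) and Icam1 alone higher. Vcam1 stood at 16.9 CPM in sFD17 against 62.4 in control, with 29.9 in TP5 and 64.7 in FR17. Itga6, the laminin receptor chain, stood at 22.3 CPM in sFD17 against 55.6 in control, with 30.8 in TP5 and 47.8 in FR17. From low to high, Angptl4, Ang, Bmp2 and Vcam1 ran as sFD17, TP5, control and FR17, as both macrophage sums did. Ltbp1 and Itga6 were highest in control instead. The part of the macrophages in these falls was not tested. Vcl, vinculin, which links adhesions to actin, stood at 104 CPM in sFD17 against 48 in control, with 69.7 in TP5 and 39 in FR17. Fmnl2, a formin that lengthens actin filaments, stood at 63.3 CPM in sFD17 against 24.6 in control, with 41.5 in TP5 and 29.3 in FR17. Both were called higher, and 25.5% of the exon bases of Vcl lie in Ap3m1 on the other strand.

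Nuclear classes went apart. Called higher among 66 chromatin regulators were 2 (3.0%, beside 5.32% of all genes), Tet1 and Dnmt3b, both with few counts. Chromatin regulators lay above 0 in 55 of 66 genes, with a median of 0.29. The median lay under that of the neutrophil markers and was −0.19 when centred on them. Kmt2d, a histone H3 methyltransferase, stood at 395 CPM in sFD17 against 209 in control, with 226 in TP5 and 173 in FR17. Kdm6b, a demethylase induced by inflammation, stood at 3048 CPM in sFD17 against 1650.3 in control, with 1826 in TP5 and 956 in FR17. By contrast, of 321 zinc finger genes of the Zfp series 235 lay below 0, 45 were called lower (beside 6.47% of all genes) and 1 higher (median −0.30). Zfp992 had 2.42 CPM in sFD17 (32 counts) against 7.46 in control (126 counts), with 4.73 in TP5 and 7.19 in FR17. Zfp386 had 2.73 CPM in sFD17 (36 counts) against 6.93 in control (117 counts), with 5.76 in TP5 and 8.54 in FR17. Reads of this family can be split between similar genes. The table's own annotation gave 414 genes of the zf-C2H2 family, 59 called lower (14.3%) and 4 higher (1.0%). Their median of 60 counts in control is low. Among all genes with 50 to under 200 counts 6.5% were called lower and 2.9% higher, and among those under 50 counts 11.6% and 10.9%. Zfp36, a member by name but a decay factor of cytokine mRNA, was abundant and at 0.41.

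Immediate early genes had a median of 0.27 with 1 of 29 called. It was Fosl1, a partner of Jun, at 126 CPM in sFD17 against 48.4 in control, with 73.2 in TP5 and 37.6 in FR17; 57.2% of its exon bases lie in Ccdc85b on the other strand. Genes of mitosis had a median of 0.11 in sFD17 against 0.76 in TP5 and 0.55 in FR17, and those of DNA replication 0.04, 0.30 and 0.30. Foxm1, the transcription factor of mitosis, had 9.32 CPM in sFD17 (123 counts) against 5.68 in control (96 counts), with 11.3 in TP5 and 9.71 in FR17. Of 35 circadian and glucocorticoid-responsive genes 5 were called lower (14.3%, beside 6.47% of all genes) and 0 higher. Nr1d1, the clock repressor REV-ERBα, had 7.27 CPM in sFD17 (96 counts) against 18.6 in control (314 counts), with 9.24 in TP5 and 15.9 in FR17. Mt1, metallothionein 1, stood at 48.8 CPM in sFD17 against 119 in control, with 98.9 in TP5 and 151 in FR17. Of 45 genes of the BCL2 family and death receptors 4 were called higher (8.9%, beside 5.32% of all genes) and 0 lower: Fas, at 133 CPM in sFD17 against 61.8 in control, with 53.2 in TP5 and 40.5 in FR17, Cflar, and with lower counts Mlkl, the pore of necroptosis, and Tnfsf10. Splicing factors (0 of 61 called) and fatty acid oxidation and peroxisome genes (0 of 33) stayed near the median of all genes, at −0.08 and −0.07. The latter list does not hold the peroxisomal gene Acaa1b, which is among the largest falls given above.

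Surface receptors and transporters showed single members. Of 41 paired receptors 5 were called lower (12.2%, beside 6.47% of all genes) and 2 higher (4.9%, beside 5.32%). Treml2, a relative of the TREM receptors of myeloid cells, stood at 184 CPM in sFD17 against 80.5 in control, with 75.3 in TP5 and 56.2 in FR17. Treml4, another, stood at 241 CPM in sFD17 against 111 in control, with 149 in TP5 and 85.8 in FR17. Trem2, the lipid receptor of macrophages, stood at 18.6 CPM in sFD17 against 38.3 in control, with 34.7 in TP5 and 43.3 in FR17. Adora2a, a receptor for adenosine, had 22.7 CPM in sFD17 (300 counts) against 10.6 in control (179 counts), with 22.2 in TP5 and 17.2 in FR17, called higher and close to its level in TP5. It was 1 of 2 called higher (4.2%, beside 5.32% of all genes) among 48 purinergic, ion channel and calcium entry genes, of which 4 were called lower (8.3%). Of 239 solute carriers 16 were called lower (6.7%) and 9 higher (3.8%), near or under the shares of all genes. Slc7a11, the cystine importer, was among the abundant ones at 2328 CPM in sFD17 against 1234 in control, with 1175 in TP5 and 532 in FR17, a difference of 0.92. Slc39a2, a zinc transporter, fell most with 0.379 CPM in sFD17 (5 counts) against 5.03 in control (85 counts), with 2.28 in TP5 and 6.75 in FR17, and its interval was wide (−5.39 to −2.45). Phgdh, the enzyme that starts serine synthesis, had 3.33 CPM in sFD17 (44 counts) against 15.6 in control (263 counts), with 12.9 in TP5 and 32.9 in FR17, highest in FR17 and lowest in sFD17.

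By the annotation of the table, protein-coding genes made up 13505 of those described, with 538 called higher and 810 lower. Short and long genes differed slightly: the median was −0.12 for protein-coding genes with up to 1000 exon bases and 0.07 for those over 8000. Most calls were of genes with low counts: 582 of the 871 genes called higher and 620 of the 1059 called lower had under 50 counts in both libraries. Genes with at least 1000 counts had a median of 0.15, and 114 of 3012 were called higher and 65 lower. Of 107 immunoglobulin variable segments 18 were called higher (16.8%) and 30 lower (28.0%), with a median of 11 counts in control. Among all genes under 50 counts the shares were 10.9% and 11.6%.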

How the data were processed

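mRNA of sorted lung CD11b+Ly6g+ cells was sequenced in 4 libraries, 1 per group, and the control and sFD17 libraries are compared. The authors deposited unnormalized counts of reads on each gene. The submitters' processing notes name HISAT2 2.0.5, StringTie 1.3.3b, featureCounts 1.5.0-p3, edgeR 3.18.1 and the build GRCm38.p6. The kit keeps strand, but whether counting used it is not stated in the sources used here, so the larger overlaps are given. Group names tied the columns to samples, with 0 columns unmapped.

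Counts were analysed with R 4.3.3, edgeR 4.0.16, DESeq2 1.42.0, Python 3.11.15, pandas 2.3.3, numpy 2.4.6, scipy 1.17.1 and matplotlib 3.10.9. Genes reaching 10 counts in 1 or more of the 4 libraries were kept. TMM factors came from all 4 libraries, the prior count was 2, and a call is a difference of at least 2-fold. No p-value was computed, since each group has 1 library. Ratios of counts carry exact 95% conditional binomial (Clopper-Pearson) intervals, which cover counting error only. A gene without counts could still have had 3 counts, which is 0.178 CPM in control and 0.227 CPM in sFD17. The procedure was tested on simulated data.

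The comparison, the 70 functional classes and the 16 cell type lists were chosen with earlier results of these data known. Of 3498 listed symbols 15 are not in the table. The row of most counts stood for each of 100 symbols that occur on several rows. GENCODE M21 and RefSeq GRCm38.p6 gave overlaps and promoters. Genes were named by rule: the 15 largest rises and falls among protein-coding genes with 100 counts in control or sFD17; per class the 4 largest differences among members with 50 counts and the most abundant per kb; genes of the study's questions; and defining markers. Called members of small counts, and genes singled out for a promoter motif or as high or low examples, were named beyond that rule after the values were seen. Alternatives were DESeq2 size factors, library size alone, TMM factors from 2 libraries, other filters, a prior count of 0.5, a 4-fold threshold, a difference from each other library, leaving out interferon and marker genes and, added later, centring on neutrophil markers. Some genes and 1 class are not reported here.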

Additional observations from a re-analysis of the deposited data

How the results depend on the processing

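The number of genes at least 2-fold higher or lower in sFD17 depended on filter, threshold and scaling. Without a filter beyond 1 count 1856 were higher and 2347 lower, with 10 counts in every library 419 and 495, and with 50 counts in sFD17 or control 294 and 430. Scaling by library size alone left 580 higher (27.4% of calls, against 45.1%). A 4-fold threshold left 125 and 213, and a 2-fold difference from each of the other libraries 372 and 451. Centred on the neutrophil markers, chosen after seeing the data, 336 were higher and 2983 lower (10.1% of calls higher). Under that centring only 3 of 70 class medians lay above 0, those of type I interferon-stimulated genes, nucleic acid sensors and interferon-inducible GTPases. The NF-κB and the secondary and tertiary granule medians passed below 0, to −0.061 and −0.026, as did those of cytokine receptors (−0.194), chromatin regulators (−0.19), immediate early genes (−0.212), chemoattractant receptors (−0.236), glycolysis (−0.273) and MHC class I (−0.282), by its construction. Scaling by library size alone put glycolysis at −0.006 and MHC class I at −0.015. DESeq2 size factors, TMM factors from the 2 libraries, a prior count of 0.5 and leaving out interferon and marker genes kept both counts within 1.5 times. No class median at least 0.3 from 0 changed sign under the 8 planned settings for class medians that were run. Leaving out interferon and marker genes emptied 2 interferon classes. No paired analysis was possible because each group had 1 library, and no library could be left out. Genes with few counts cannot be judged at this depth: 5335 genes had under 50 counts in both libraries.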
